A study of Mus musculus with 12 samples.

Results

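The 6 genes described here are the FoxO transcription factor genes Foxo1, Foxo3, Foxo4 and Foxo6 and the muscle atrophy ubiquitin ligase genes Fbxo32 and Trim63, out of 40597 loci in the deposited expression table. They were taken by gene name, each matched 1 locus that joins no other gene, and 4 of them reached a mean of 1 FPKM over all libraries, as did 14931 loci in all. FPKM is a fragment count scaled by transcript length and library size, so levels can be set side by side between genes. The genes were selected on their FPKM in dexamethasone against vehicle libraries of this same table, so that contrast is given as a description, without a test.

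RNA came from primary neurospheres, floating cultures of neural stem and progenitor cells, grown from the hypothalamus of wild-type C57Bl/6 mouse embryos at embryonic day 14.5. Passage 3 cultures were held for 4 hours in 100 nM dexamethasone, a synthetic glucocorticoid that activates the glucocorticoid receptor, or in an equal amount of the ethanol vehicle. Male and female cultures under either treatment form 4 groups of 3 libraries. No group carries a transgene or deletion.

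FoxO proteins are transcription factors that insulin and growth factor signalling holds in check: the kinase Akt phosphorylates them, and 14-3-3 proteins then keep them in the cytoplasm. When this signal is weak they enter the nucleus and switch on genes of cell cycle arrest, stress resistance, autophagy and protein breakdown. Fbxo32, also called atrogin-1, is an F-box protein that brings substrates to an SCF ubiquitin ligase, and Trim63, also called MuRF1, is a RING ubiquitin ligase. In skeletal muscle both are classic FoxO targets that rise when glucocorticoids or fasting cause wasting. In neural stem cells, Foxo3 is known for helping to keep the stem cell pool.

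Promoter sequence was read for the 3 genes with an entry in the RefSeq table (GRCm38.p6), because the treatment acts through the glucocorticoid receptor and 1 of the genes, Trim63, is regulated by FoxO in muscle. Each run covers up to 250 bases before the transcription start, 5′ to 3′ on the gene's strand, with bases inside annotated exons left out. The windows are chr4:134314870-134315119 (plus strand) for Trim63, chr3:52268087-52268335 (plus strand) for Foxo1 and chr10:42276756-42276945 (minus strand) for Foxo3. Capitals mark matches to a glucocorticoid receptor element (GAACA, 3 bases of any kind, then TGTTC, its own reverse complement), a FoxO element (TGTTTAC, or GTAAACA on the other strand) and a TATA box (TATAAA, or TTTATA on the other strand).
Trim63: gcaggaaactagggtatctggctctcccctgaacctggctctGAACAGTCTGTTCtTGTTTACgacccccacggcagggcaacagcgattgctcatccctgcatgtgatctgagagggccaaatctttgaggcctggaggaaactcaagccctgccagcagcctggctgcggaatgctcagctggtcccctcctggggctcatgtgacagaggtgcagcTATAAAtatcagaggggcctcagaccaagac
Foxo1: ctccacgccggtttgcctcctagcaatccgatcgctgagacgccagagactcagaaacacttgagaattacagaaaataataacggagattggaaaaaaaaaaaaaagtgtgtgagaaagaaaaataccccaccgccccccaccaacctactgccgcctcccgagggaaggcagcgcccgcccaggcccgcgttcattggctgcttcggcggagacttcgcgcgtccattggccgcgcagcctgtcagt
Foxo3: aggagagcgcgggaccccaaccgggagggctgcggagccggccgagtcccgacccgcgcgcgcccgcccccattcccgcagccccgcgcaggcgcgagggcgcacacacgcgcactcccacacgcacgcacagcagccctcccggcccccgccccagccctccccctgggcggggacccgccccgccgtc

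The Trim63 window held all of these motifs. The receptor element, GAACAGTCTGTTC, lay 208 to 196 bases before the start and the FoxO element 194 to 188 bases before it, and they share no base. The TATA box lay 31 to 26 bases before the start. Among 32851 promoters of 27025 genes, 0.0396% held the receptor element, 3.17% the FoxO element and 12.4% the TATA box, and 1 promoter, that of Trim63, held the receptor and FoxO elements together. Neither Foxo1 nor Foxo3 held any of these letters within its window. The Foxo3 window was 81.6% GC with 28 CG dinucleotides in 190 bases, the Foxo1 window 55.8% GC with 20 in 249 bases, and the Trim63 window 56.8% GC with 4 in 250 bases. Over all promoters of this table the median was 52.4% GC with 6 CG dinucleotides.

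Several facts of the libraries bear on all values. In male vehicle library 3 and male dexamethasone library 2, loci without a gene name took 75% and 53.1% of all FPKM, against 11.6% to 38.6% in the other 10. Both female libraries numbered 2 stood apart in the forebrain patterning gene Six3. It was at 0.064 FPKM with vehicle and 0.0702 FPKM with dexamethasone, against 7.45 to 50.6 FPKM elsewhere. Of 12 hypothalamic markers only Six3 and Lhx2 reached a mean of 1 FPKM, and Isl1 was listed at 0 in every library, while all 12 neural stem cell markers reached it. Xist separated the sexes, at 136 to 328 FPKM in female and at most 14.1 FPKM in male libraries, but not evenly among males. It was at 3.04 FPKM in male vehicle library 2 and 14.1 FPKM in male dexamethasone library 2. The other male libraries had 0.0157 to 0.0466 FPKM. The cause of this Xist signal was not tested. The treatment was visible in Fkbp5, the receptor's co-chaperone and a standard target, at 15.6 to 25.5 FPKM with vehicle and 94.9 to 157 FPKM with dexamethasone. Values without the 2 libraries rich in unnamed loci, or without both female libraries numbered 2, are given beside results they move. No fit left out both male libraries numbered 2.

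Foxo3 was the most abundant of the 6 transcripts, with a mean of 11.8 FPKM over the 12 libraries. Foxo4 followed at 5.54 FPKM, Fbxo32 at 3.2 FPKM, Foxo1 at 1.39 FPKM and Foxo6 at 0.548 FPKM. Foxo3 exceeded Foxo4 in 12 of 12 libraries, Foxo4 exceeded Fbxo32 in 11 of 12, Fbxo32 exceeded Foxo1 in 12 of 12 and Foxo1 exceeded Foxo6 in 12 of 12. The single library that broke the order was female vehicle 1, where Fbxo32 was at 6.47 and Foxo4 at 5.51 FPKM. Trim63 stood last in every library and was listed at 0 in 10 of them.

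Fbxo32 was lower in every dexamethasone library than in any vehicle library. Its gene lies on chromosome 15 at 58175879 to 58214932 (GRCm38, minus strand). In males it measured 4.21, 4.07 and 2.99 FPKM in vehicle libraries 1, 2 and 3 and 2.29, 2.12 and 1.27 FPKM in the dexamethasone libraries of the same numbers. In females it measured 6.47, 5.02 and 3.75 FPKM with vehicle and 2.85, 1.51 and 1.82 FPKM with dexamethasone. The lowest vehicle value was that of male library 3 and the highest dexamethasone value that of female library 1, so the gap between the treatments was narrow while the spread within each was wide.

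Male group means of Fbxo32 were 3.76 ± 0.667 FPKM under vehicle and 1.89 ± 0.547 FPKM under dexamethasone (SD, n = 3 each). The female means were 5.08 ± 1.36 and 2.06 ± 0.7 FPKM (SD, n = 3 each). Over both sexes the mean was 4.42 FPKM with vehicle and 1.98 FPKM with dexamethasone, a 2.23-fold lower level. Set number by number, the dexamethasone library had 0.302 to 0.544 of the vehicle level, lower in 6 of 6 comparisons. Across all tested loci, 0.804% had every dexamethasone library below every vehicle library and 10.1% were lower in all 6 comparisons by number. Because the gene was chosen for this contrast, nothing is read from those shares.

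On the log2(FPKM + 1) scale, which understates differences of low genes, the Fbxo32 difference was -0.73 (SE 0.23) in males, -0.99 (SE 0.23) in females and -0.86 (SE 0.16) averaged over both. Over all alternative settings tried the averaged difference lay between -1.13 and -0.775. It was -0.95 without the 2 libraries rich in unnamed loci and -0.79 without both female libraries numbered 2. In skeletal muscle, glucocorticoids are known to raise Fbxo32, the opposite direction.

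**Figure D1:**
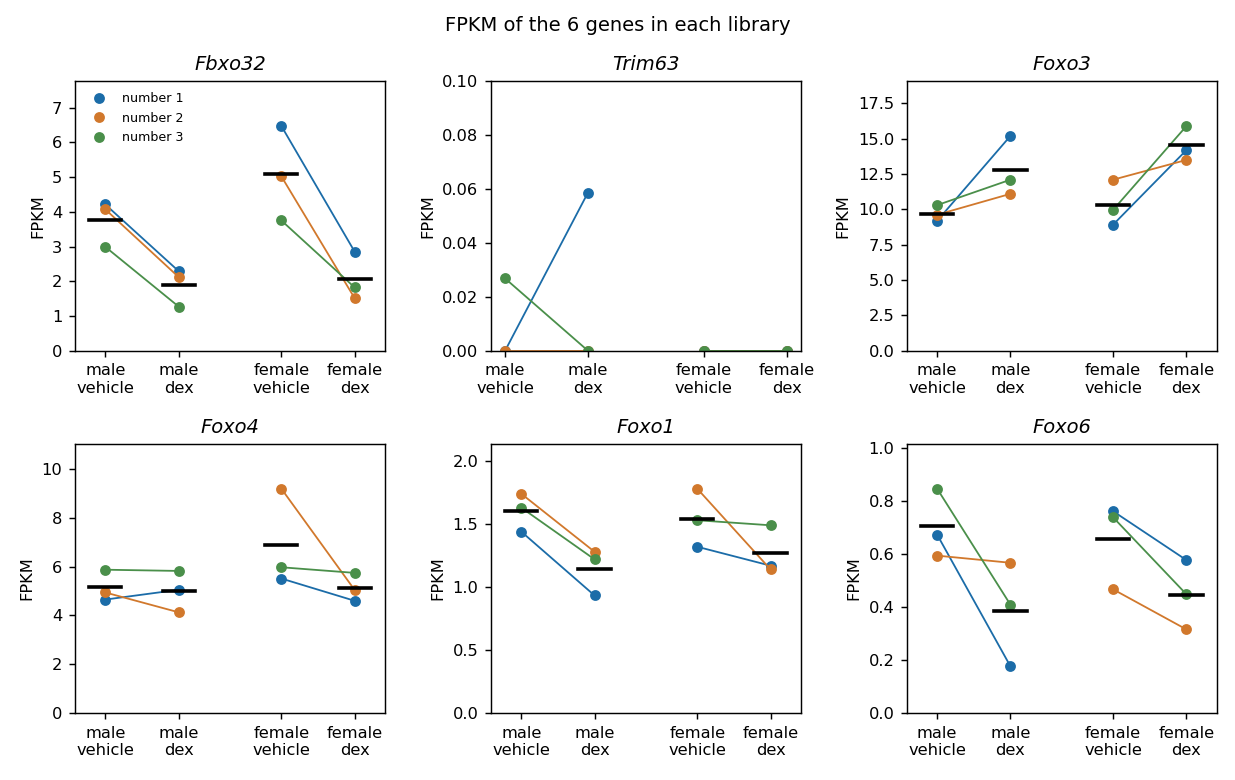
FPKM (vertical axes, each from 0) of the 6 genes in the 12 libraries, by sex and treatment. Points are libraries, thin lines join libraries of the same sex and number, and black bars are group means (none for Trim63, which is listed at 0 in 10 libraries). For Fbxo32 the highest dexamethasone library (2.85 FPKM) lay under the lowest vehicle library (2.99 FPKM), while for the FoxO genes the treatments overlapped.

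A gene named Gm15943 is annotated antisense to Fbxo32, and the authors' strand setting was not given in the sources used here. Gm15943 had a row of its own at 0.0606 to 0.311 FPKM, far under Fbxo32 in each library, with a median of 0.156 FPKM with vehicle and 0.0913 FPKM with dexamethasone. Markers of the tissue in which Fbxo32 is best known were nearly absent. Of 12 skeletal muscle markers only Tnnt3 reached a mean of 1 FPKM, and their summed level was 1.78 to 4.05 FPKM with vehicle and 1.38 to 4.22 FPKM with dexamethasone. The 7 astrocytic markers summed to 262 to 621 FPKM with vehicle and 339 to 919 FPKM with dexamethasone, most of it from Aldoc, at 202 to 420 and 278 to 667 FPKM; the other 6 summed to 59.7 to 200 and 60.3 to 252 FPKM. None of these 7 separated the treatments.

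A pair of neural stem cell markers was also lower with dexamethasone. Of the 12 in that list, Sox2, a transcription factor of neural stem cells, had 104 to 158 FPKM with vehicle and 81.2 to 96.8 FPKM with dexamethasone. Msi1, an RNA-binding protein of the same cells, had 22.7 to 32.6 and 14.1 to 20.9 FPKM. For these 2 every dexamethasone library lay below every vehicle library, as at 0.804% of tested loci, while the other 10 overlapped. The list summed to 6163 to 7538 FPKM with vehicle and 5899 to 7627 FPKM with dexamethasone. Of 7 oligodendrocyte lineage markers with a mean of 1 FPKM, Cspg4 had every dexamethasone library above every vehicle library. The same held at 1.41% of tested loci. The part of these markers in the Fbxo32 difference was not tested. In bulk RNA, fewer cells that express a gene and less of its RNA per cell cannot be told apart.

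Trim63, the partner of Fbxo32 in muscle atrophy, was all but undetected. It lies on chromosome 4 at 134315120 to 134329629 (plus strand). It was listed at 0.0268 FPKM in male vehicle library 3 and at 0.0586 FPKM in male dexamethasone library 1, and at 0 in the other 10 libraries, all 6 female ones included. An exact 0 in this kind of table can be a failed estimate, and no fold is given. So the gene whose promoter window carries the receptor and FoxO letters printed above was at or near 0 under both treatments.

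Foxo3 ran the other way from Fbxo32 and was higher with dexamethasone. Its gene spans 42181841 to 42276755 on chromosome 10 (minus strand). Male vehicle libraries 1, 2 and 3 had 9.19, 9.62 and 10.3 FPKM, and male dexamethasone libraries 15.2, 11.1 and 12.1 FPKM. Female vehicle libraries had 8.92, 12.1 and 9.97 FPKM, and female dexamethasone libraries 14.2, 13.5 and 15.9 FPKM. Within each sex every dexamethasone library exceeded every vehicle library, as at 5.73% of tested loci in males and 6.95% in females. Over both sexes the treatments overlapped, through female vehicle library 2. Male means were 9.69 ± 0.545 FPKM under vehicle and 12.8 ± 2.14 FPKM under dexamethasone, and female means 10.3 ± 1.6 and 14.5 ± 1.2 FPKM (SD, n = 3 each).

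By number, the dexamethasone library held 1.12 to 1.65 times the Foxo3 level of its vehicle counterpart, higher in 6 of 6 comparisons, as were 9.83% of tested loci. The log2(FPKM + 1) difference was 0.35 (SE 0.13) in males, 0.46 (SE 0.13) in females and 0.41 (SE 0.09) averaged. The male difference was 0.232 without male dexamethasone library 1, its highest, and the female one 0.62 without both female libraries numbered 2.

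Foxo1 and Foxo6, the 2 least abundant FoxO transcripts, were lower with dexamethasone in all 6 comparisons by number, with overlapping groups. Of tested loci, which include Foxo1 but not Foxo6, 10.1% were likewise lower in all 6. Foxo1 mediates much of insulin's transcriptional effect in liver and hypothalamic neurons, and Foxo6 is a FoxO factor known mainly from brain. Foxo1 (chromosome 3, 52268336 to 52353221, plus strand) measured 1.44, 1.74 and 1.63 FPKM in vehicle libraries 1, 2 and 3 of males and 0.934, 1.28 and 1.22 FPKM in their dexamethasone libraries. Females had 1.32, 1.78 and 1.53 FPKM with vehicle and 1.17, 1.14 and 1.49 FPKM with dexamethasone. All male dexamethasone libraries lay below the male vehicle libraries, as at 6.15% of tested loci, while female dexamethasone library 3 stood among the vehicle values.

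The Foxo1 ratio to vehicle was 0.639 to 0.97, and the log2(FPKM + 1) difference was -0.28 (SE 0.15) in males, -0.17 (SE 0.15) in females and -0.23 (SE 0.11) averaged. Without both female libraries numbered 2 the female difference was -0.0622. At this low level the added constant matters: with 0.1 FPKM in its place the averaged difference was -0.365. The antisense gene Gm20402 overlaps Foxo1 and had 0 to 0.871 FPKM, with a median of 0.353 FPKM with vehicle and 0.164 FPKM with dexamethasone. Its reads could not be told from those of Foxo1 if strand was not used, and its part in the Foxo1 difference was not tested.

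Foxo6 (chromosome 4, 120267079 to 120287349, minus strand) stayed under 1 FPKM in every library and entered no fit. The male values were 0.673, 0.594 and 0.846 FPKM with vehicle and 0.177, 0.567 and 0.409 FPKM with dexamethasone. The female values were 0.761, 0.467 and 0.738 FPKM with vehicle and 0.577, 0.316 and 0.448 FPKM with dexamethasone. Male dexamethasone library 1 was the lowest of the 12, and in females vehicle library 2 lay within the dexamethasone range. The ratio to vehicle ran from 0.264 to 0.955.

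Foxo4, the X-linked member (101254528 to 101260873, plus strand), had the smallest male difference of the 3 FoxO genes fitted. Male vehicle libraries had 4.65, 4.94 and 5.87 FPKM and male dexamethasone libraries 5.05, 4.13 and 5.82 FPKM, which overlap over most of their range. Female vehicle libraries had 5.51, 9.18 and 5.97 FPKM and female dexamethasone libraries 4.6, 5.04 and 5.74 FPKM. The value of 9.18 FPKM came from female vehicle library 2, one of the 2 libraries without Six3. The log2(FPKM + 1) difference was -0.04 (SE 0.18) in males and -0.34 (SE 0.18) in females, with no steady direction in males. The male value was 0.149 without the 2 libraries rich in unnamed loci, 0.0411 without male vehicle library 3 and 0.0668 without male dexamethasone library 2. The female value was -0.142 without female vehicle library 2 and -0.134 without both female libraries numbered 2.

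**Figure D2:**
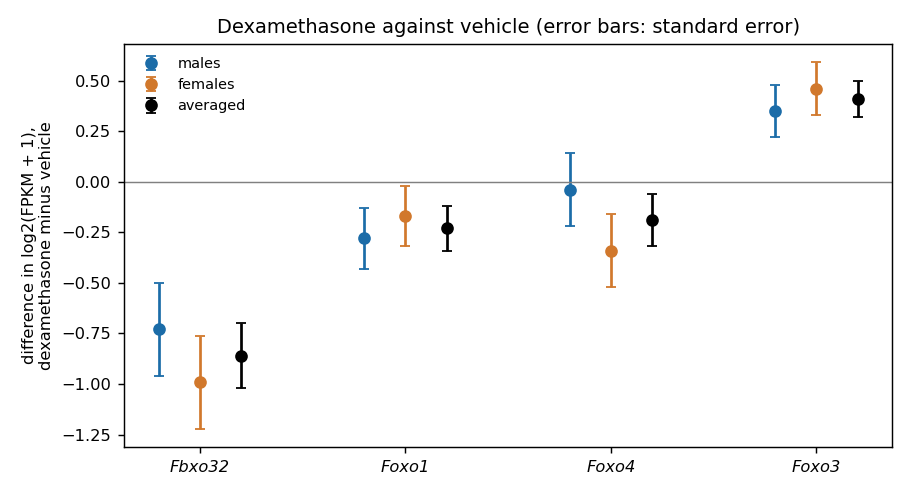
Difference between dexamethasone and vehicle in log2(FPKM + 1) for the 4 genes with a mean of at least 1 FPKM, in males, females and averaged over both. Points are the fitted differences and bars their standard errors. Fbxo32 lies lowest (-0.73, -0.99 and -0.86), Foxo3 highest (0.35, 0.46 and 0.41), and the male and female error bars of each gene touch or overlap.

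With 1 FoxO transcript higher and others lower, the make-up of the family's RNA separated the treatments while its sum did not. The summed FPKM of Foxo1, Foxo3, Foxo4 and Foxo6 was 17.1 ± 1.37 in male vehicle, 19.3 ± 2.16 in male dexamethasone, 19.4 ± 3.65 in female vehicle and 21.4 ± 1.87 in female dexamethasone libraries (SD, n = 3 each), and these ranges overlap. Foxo3 supplied 57.6%, 57% and 55.2% of the sum in male vehicle libraries 1, 2 and 3 and 71.1%, 64.9% and 61.8% in male dexamethasone libraries. It supplied 54%, 51.4% and 54.7% in female vehicle and 69.2%, 67.5% and 67.4% in female dexamethasone libraries. The lowest dexamethasone share, 61.8%, was above the highest vehicle share, 57.6%. Because the genes were chosen on this same contrast, nothing is read from this separation.

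The shares of the other 3 FoxO genes made up the difference, as parts of the same sum must. Foxo4 took 30% ± 1.33 in male vehicle and 25.9% ± 3.36 in male dexamethasone libraries, and 35.1% ± 3.48 and 24% ± 1.5 in the female ones (SD, n = 3 each). Foxo1 took 9.36% with vehicle and 6.04% with dexamethasone in males, and 8.01% and 5.9% in females. Foxo6 took 4.09% and 2.09% in males, and 3.55% and 2.09% in females. For Foxo3 the vehicle means of the 2 sexes, 56.6% and 53.4%, were closer to each other than to the dexamethasone means, 65.9% in males and 68% in females.

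**Figure D3:**
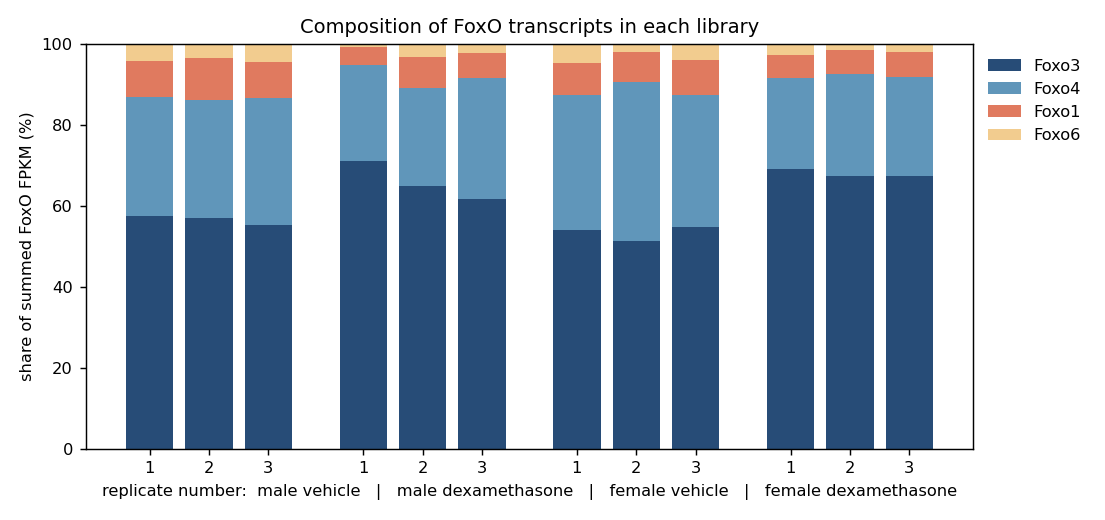
Share of each FoxO gene in the summed FPKM of Foxo1, Foxo3, Foxo4 and Foxo6 (vertical axis, percent) in the 12 libraries, ordered by group and replicate number. Foxo3 makes up 51.4% to 57.6% of each vehicle bar and 61.8% to 71.1% of each dexamethasone bar.

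Sex was not part of how the genes were chosen, so it could be tested. At an adjusted p under 0.05 by limma, none of the 4 tested genes differed between female and male libraries. Of all tested loci, 0.107% were called. None of the 4 had an unadjusted limma p under 0.05, a level reached by 1147 of all 14931 loci. The female minus male difference was 0.21 (SE 0.16, adjusted p = 0.746) for Fbxo32 and 0.18 (SE 0.13, adjusted p = 0.711) for the X-linked Foxo4. It was 0.13 (SE 0.09, adjusted p = 0.728) for Foxo3 and 0.02 (SE 0.11, adjusted p = 0.969) for Foxo1.

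Nor did the dexamethasone difference itself pass a limma test between the sexes at an adjusted p under 0.05 for any of the 4 genes. Of tested loci, 0.0335% were called. Again none of the 4 had an unadjusted limma p under 0.05, a level reached by 219 of all 14931 loci. The female difference minus the male one was -0.26 (SE 0.32) for Fbxo32, -0.30 (SE 0.25) for Foxo4, 0.11 (SE 0.19) for Foxo3 and 0.11 (SE 0.21) for Foxo1, each with an adjusted p of 1. Without the 2 libraries rich in unnamed loci the value was -0.0768 for Fbxo32, -0.489 for Foxo4 and -0.0178 for Foxo3. Without both female libraries numbered 2 it was -0.127 for Fbxo32, -0.0929 for Foxo4, 0.267 for Foxo3 and 0.22 for Foxo1. With standard errors of this size and 3 libraries a group, missing the threshold does not show that the sexes were alike.

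The pathway around the FoxO factors was followed in 6 gene lists, for dexamethasone against vehicle averaged over both sexes. The lists were chosen with earlier results of these data known. The number of calls in a list is therefore a description, not a test of that list. Of all 14931 loci, 1.53% were called by limma, 171 higher (1.15%) and 58 lower (0.388%). An unadjusted limma p under 0.05 was reached by 2031 of the 14931 loci, the background for such counts in the lists below. Scaled to the protein-coding sum of each library, the calls were 132 higher and 78 lower. The labels call the libraries biological replicates but do not say how these were made, so the p-values measure only the spread between these cultures.

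Among 45 FoxO target genes, 39 were tested, 3 rose and 36 did not pass, with 10 at an unadjusted p under 0.05 by limma. The median difference was 0.055, against -0.007 over all loci. Those that rose were Usp2, a deubiquitinase, Bcl6, a transcriptional repressor, and Sesn1, a sestrin that restrains mTORC1. The part of FoxO proteins in these differences was not tested. Sesn1 in males measured 14.3, 10.8 and 11.8 FPKM in vehicle libraries 1, 2 and 3 and 52.3, 27.6 and 30 FPKM in the dexamethasone libraries. In females it measured 14.7, 22.7 and 11.4 FPKM with vehicle and 54, 56.8 and 31.2 FPKM with dexamethasone. All 6 dexamethasone libraries of Sesn1 lay above the 6 vehicle libraries, as at 1.41% of tested loci, and the difference was 1.47 (SE 0.22, limma adjusted p = 0.0106). Without the 2 libraries rich in unnamed loci the adjusted p of Sesn1 was 0.052, and 2 of the list were called.

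Bcl6 averaged 2.5 ± 0.109 FPKM under vehicle and 6.49 ± 2.46 FPKM under dexamethasone in males, and 2.66 ± 0.349 and 8.19 ± 1.37 FPKM in females (SD, n = 3 each), a difference of 1.19 (SE 0.14, limma adjusted p = 0.00295). Usp2 averaged 14.6 ± 1.75 FPKM under vehicle and 22.9 ± 2.11 FPKM under dexamethasone in males, and 14.8 ± 2.23 and 31.6 ± 1.25 FPKM in females (SD, n = 3 each), a difference of 0.83 (SE 0.08, limma adjusted p = 0.000758). Taken within 1 sex, Usp2 and Bcl6 were called in females (limma adjusted p = 0.00416 and 0.0256), where 0.482% of loci were called. In males none of the list was called, with 4 at an unadjusted p under 0.05 by limma. Of all 14931 loci, 0.315% were called in males and 953 had an unadjusted p under 0.05. None of the list was called for a difference of the response between the sexes, with 1 gene at an unadjusted p under 0.05. That level was reached by 219 of all 14931 loci.

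By function, the 3 called targets belonged to 3 classes: oxidative stress (Sesn1), transcription factors (Bcl6) and the ubiquitin system (Usp2). With same-numbered libraries of a sex fitted as a block, limma also called Trib1 (adjusted p = 0.0105), Ccnd2 (0.0192) and Bbc3 (0.0405). The 9 autophagy and mitophagy targets lay between -0.14 (Mul1) and 0.15 (Atg14). The 6 cell cycle targets ran from -0.70 (Ccnd2) to 0.36 (Cdkn1a), with Ccnd2 at a limma adjusted p of 0.45 without the block. The 3 tested cell death targets ran from -0.42 (Bbc3) to 0.17 (Pmaip1), and Tnfsf10 and Fasl were too low to test. In the metabolic class, 7 of 10 were tested, from -0.35 (Insr) to 1.08 (Pdk4, limma adjusted p = 0.349). Of 4 targets in the ubiquitin system, Usp2 was called, and the F-box gene Fbxo30 lay lowest at -0.20.

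Upstream of FoxO, 1 of 25 insulin and Akt signalling genes rose and 24 did not pass, with a median of -0.093 and 9 at an unadjusted p under 0.05 by limma. It was Pik3r1, which encodes the p85 regulatory subunit of PI3-kinase. Pik3r1 averaged 50.5 ± 8.1 FPKM under vehicle and 93.5 ± 7.17 FPKM under dexamethasone in males, and 51.6 ± 13.4 and 97.1 ± 13.2 FPKM in females (SD, n = 3 each), a difference of 0.91 (SE 0.14, limma adjusted p = 0.0106). Without the 2 libraries rich in unnamed loci its adjusted p was 0.0852. The kinase gene Akt1 differed by -0.09 (limma adjusted p = 0.667), and the locus of the phosphatase gene Ppp2ca, joined with Mir3061, by 0.05 (limma adjusted p = 0.743).

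Of 34 genes for proteins that modify or bind FoxO, 33 were tested and 1 fell, with a median of -0.091 and 4 at an unadjusted p under 0.05 by limma. This was Ywhah, which encodes a 14-3-3 protein of the kind that holds phosphorylated FoxO in the cytoplasm. Ywhah averaged 147 ± 14 FPKM under vehicle and 104 ± 18.7 FPKM under dexamethasone in males, and 141 ± 4.76 and 97.6 ± 9.5 FPKM in females (SD, n = 3 each), a difference of -0.52 (SE 0.09, limma adjusted p = 0.0245). The Ywhah call was lost on leaving out any 1 of male vehicle libraries 1 and 2, male dexamethasone library 3, female vehicle libraries 2 and 3 and female dexamethasone libraries 1 and 2, with adjusted p up to 0.072. It was also lost without both female libraries numbered 2, with an adjusted p of 0.115. Its relative Ywhae differed by -0.21 (limma adjusted p = 0.441).

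The partners of Fbxo32 in its ligase showed no call. Among 10 genes of SCF subunits and their activators none passed, with a median of 0.036 and 2 at an unadjusted p under 0.05 by limma. The adaptor gene Skp1a, to which the F-box binds, differed by 0.10 (adjusted p = 0.593), and Nedd8, the modifier that activates the cullin, by 0.14 (adjusted p = 0.284). Of 17 other ligases linked to atrophy or related to the pair, 13 were tested and none passed, with 4 at an unadjusted p under 0.05 by limma and a median of -0.109. Nedd4 differed by 0.01 (adjusted p = 0.985). The Stub1 locus, joined with Mir3082, ranged from 61.1 to 1670 FPKM between libraries and had a difference of -0.64 with an SE of 1.09.

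The closest relatives of the 2 muscle ligases were followed by name. Fbxo25, the nearest F-box relative of Fbxo32, had a mean of 8.89 FPKM and a difference of 0.14 (limma adjusted p = 0.577). The muscle F-box gene Fbxo40 and the RING genes Trim54 and Trim55, relatives of Trim63, were listed at 0 in every library. Of 4 reported substrates of the Fbxo32 protein, 3 were tested and none passed, with none at an unadjusted p under 0.05 by limma. Eif3f, a translation initiation factor subunit, differed by 0.05 (adjusted p = 0.736) and the calcineurin subunit gene Ppp3ca by -0.12 (adjusted p = 0.639), while the muscle regulator Myod1 was at most 0.0904 FPKM.

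**Figure D4:**
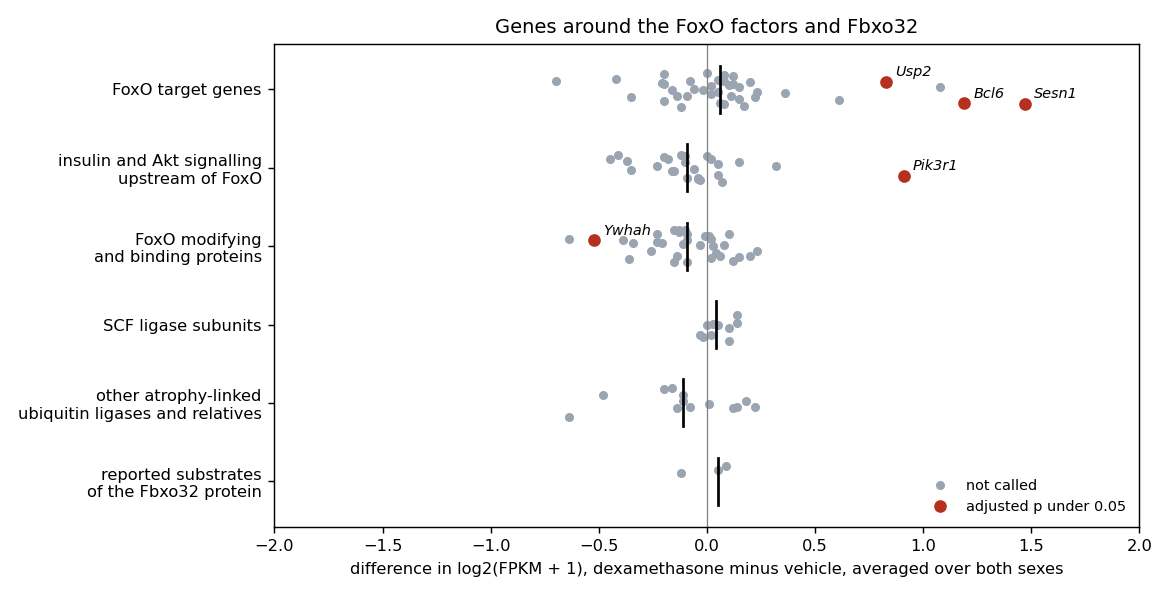
Difference between dexamethasone and vehicle in log2(FPKM + 1), averaged over both sexes (horizontal axis), for the tested genes of the 6 lists. Each point is a gene, red points passed an adjusted p of 0.05 in limma, black bars are list medians, and vertical position within a list has no meaning. The 5 called genes are Usp2, Bcl6, Sesn1 and Pik3r1 on the higher side and Ywhah on the lower side, and the list medians lie between -0.109 and 0.055.

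The loci whose level tracked Fbxo32 most closely over the 12 libraries were S1pr1, a sphingosine 1-phosphate receptor (Pearson r = 0.972), Pde1b, a cyclic nucleotide phosphodiesterase (0.967), Adcy8, an adenylyl cyclase (0.966), Zfyve16 (0.962) and the granin gene Scg2 (0.943). All 5 had lower means with dexamethasone: S1pr1 had 21.9 FPKM with vehicle and 12.4 FPKM with dexamethasone, and Pde1b 56.6 and 27.1 FPKM. Those most like Foxo3 were Sh3rf1 (0.959), Tob2 (0.946) and Fam13a (0.935), each higher with dexamethasone, Fam13a at 5.84 against 2.35 FPKM. Fbxo34 (0.937), Usp28 (0.934) and Klf7 (0.924) were most like Foxo1, and Mast3 (0.958), Fam53c (0.935) and Sez6l (0.923) most like Foxo4. These correlations are descriptions over 12 libraries that share treatment, sex and depth, picked as the highest of 14931 loci.

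Between the genes themselves the correlations were looser. Over the 12 libraries r was -0.659 between Fbxo32 and Foxo3, 0.519 between Fbxo32 and Foxo1 and 0.301 between Fbxo32 and Foxo4. Foxo1 and Foxo4 had r = 0.525, Foxo1 and Foxo3 r = -0.496, and Foxo3 and Foxo4 r = 0.0333. These too are descriptions, since treatment moves with both genes of a pair.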

How the data were processed

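The authors deposited FPKM values for 40597 loci in 12 stranded total RNA libraries. The submitters' processing notes list Cuffdiff 2.2.1, Cufflinks 2.2.1, TopHat2 2.0.9 and the build GRCm38. Annotation release, strand setting and library scaling were not given in the sources used here. Positions are from GENCODE M21, counted from 1. FPKM carry no counts, so absolute depth is unknown; at low small-RNA loci, the value of 1 fragment relative to male vehicle library 3 was 1 to 1.61.

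After adding 1 FPKM, log2 values were fitted by limma 3.58.1 (R 4.3.3), with 1 mean per group over all 12 libraries and a trended eBayes, at the 14931 loci averaging 1 FPKM or more. Two-sided p-values were adjusted over these loci by the Benjamini-Hochberg method and called under 0.05. The code was tested on simulated data. Every adjusted p is from limma.

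The members and lists were chosen with earlier results of these data known. Named from each list are the called genes (at most 8) and, with fewer than 2 called, the 2 of highest mean; genes at the ends of target classes, Fbxo25, Fbxo40, Trim54, Trim55, Myod1, single markers and genes gained with the block were named after their values were seen. Genes most alike were picked by Pearson correlation over the 12 libraries. Alternatives covered the added constant, the filter, the scaling, a replicate block and libraries left out; leaving out both female libraries numbered 2 was chosen after seeing the data.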

Additional observations from a re-analysis of the deposited data

How the results depend on the processing

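Dexamethasone differences of Fbxo32 and Foxo3 kept their direction under every alternative run, in males, females and averaged; that of Foxo1 did too. That of Foxo4 did so in females and averaged but not in males, where it ran from -0.138 to 0.0668 with 1 library left out and was 0.149 without the 2 libraries rich in unnamed loci. The averaged count of called loci, 229, was 804 with the replicate block (420 higher and 384 lower, against 171 and 58), 114 without the 2 libraries rich in unnamed loci, 135 without both female libraries numbered 2 and 146 to 215 with 1 library left out (146 without female dexamethasone library 1). The male count, 47, was 148 with the block, 19 without those 2 libraries, 18 with only male libraries and 28 to 49 with 1 left out. The female count, 72, was 187 with the block, 33 with only female libraries, 42 without both numbered 2 and 31 to 74 with 1 left out. For the response between the sexes, 5 loci became 8 with the block, 8 without the 2 libraries rich in unnamed loci, 13 without both female libraries numbered 2 and 4 to 14 with 1 left out. For female against male, 16 became 27 without both numbered 2 and 15 to 28 with 1 left out. The cause of these changes was not tested. Fits with libraries left out held fewer libraries, while the block fit kept all 12.

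The labels do not pair libraries by number. Deviations from group means correlated at 0.0819 to 0.167 between same-numbered libraries of a sex, over 0.1 in 4 of 6. Between other numbers they correlated at -0.147 to 0.0338. Deviations cancel out within a group, so a positive value at the same number lowers those at other numbers. Within a sex, 12 of 12 libraries correlated best with their own number, which counts each pair from both sides. With the replicate block 6 FoxO targets were called, 4 higher and 2 lower: Trib1 higher (limma adjusted p = 0.0105) and Ccnd2 (0.0192) and Bbc3 (0.0405) lower joined the other 3, so that the cell cycle and cell death classes also held calls. Of the insulin and Akt genes 4 were called, 2 higher and 2 lower: Sgk3 higher (0.0335) and Irs1 (0.00525) and Phlpp2 (0.0335) lower joined Pik3r1. The other 4 lists kept their counts.

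Foxo1 had an averaged difference of -0.365 with 0.1 FPKM added, and its sex difference was -0.0552 after quantile normalization and -0.013 to 0.0552 with 1 library left out. The Foxo3 interaction was -0.0178 without the 2 libraries rich in unnamed loci; there Ppp2ca was -0.00662 and Stub1 0.107. Scaled to the protein-coding sum, Eif3f was -0.0244, Nedd4 -0.0689 and Ppp2ca -0.0272, and after quantile normalization -0.0164, -0.138 and -0.04, with Skp1a at -0.0393. Nedd4 was -0.00705 without both female libraries numbered 2 and -0.0491 to 0.0439 with 1 left out, and Stub1 was -1.42 to 0.0595. None of Eif3f, Nedd4, Ppp2ca, Skp1a and Stub1 was called in any setting. Depth is unknown, and Foxo6 and Trim63 were too low to be fitted.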
